A study of Mus musculus with 16 samples.

Results

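The E protein genes Tcf3, Tcf4 and Tcf12 and the Id genes Id1, Id2, Id3 and Id4 were matched by symbol to the Ensembl IDs of the count tables, which gave 7 genes of 38293, and were compared between 2 mouse lymphoid lines. P6D4 is a line from the SCID.adh thymic lymphoma of the mouse. Its label is DN3, the thymocyte stage at which T cell receptor beta genes are rearranged. 70Z/3 is a lymphoblast line labelled Pre-B. RNA-Seq was done on 3 libraries of each line, with no treatment named in the labels, and Miz1 ChIP-Seq once per line. Each line stands for its lineage alone, so lineage and line cannot be told apart, and because the RNA libraries are called replicates with no word on separate cultures, the p-values rest on a spread between libraries that may be technical only.

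E proteins are basic helix-loop-helix transcription factors that bind the E-box, CANNTG, as dimers with each other or with tissue-specific partners. Tcf3 encodes the E2A proteins, Tcf12 encodes HEB and Tcf4 encodes E2-2. Id proteins carry the dimerising helix-loop-helix but no basic region, so an E protein bound to an Id protein cannot bind DNA. In lymphocyte development E2A is needed for B lineage commitment, E2A and HEB act together in thymocytes, and Id2 and Id3 restrain them, Id2 mainly in innate lymphoid cells and Id3 downstream of the pre-T and T cell receptors.

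In the RefSeq annotation of GRCm38 the E protein genes are long: Tcf3 (ENSMUSG00000020167) spans 24.4 kb at chr10:80409541-80433976 on the minus strand, Tcf12 (ENSMUSG00000032228) 267.6 kb at chr9:71844252-72111893 on the minus strand, and Tcf4 (ENSMUSG00000053477) 344.5 kb on chromosome 18. The Id genes are short. Id1 (ENSMUSG00000042745) spans 1.2 kb at chr2:152736251-152737410, Id2 (ENSMUSG00000020644) 2.3 kb at chr12:25093799-25096092 on the minus strand, Id3 (ENSMUSG00000007872) 1.6 kb at chr4:136143822-136145392 on the plus strand, and Id4 (ENSMUSG00000021379) 4.9 kb at chr13:48261116-48266028 on the plus strand. The pseudogenes Gm18821 and Rpl15-ps2 lie within the Tcf12 span.

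Gene counts summed to 54.8, 52.1 and 48.3 M in the P6D4 libraries, and to 47.6, 48.9 and 45.5 M in those of 70Z/3 (M, mega). Values are counts per M gene counts (CPM), with library sizes scaled by TMM, a normalisation on the bulk of genes. The lines differed in most genes: of 13750 tested with edgeR's quasi-likelihood test, 86.5% were called at an adjusted p under 0.05, 43.3% as higher and 43.2% as lower in P6D4. In 87.4% of tested genes the 3 libraries of P6D4 lay all above or all below those of 70Z/3. A call by itself is therefore the common state of a gene here, and the size of a difference carries more than its p. Lineage markers fitted the T and B lineages of the labels, and the stages that the labels name were not tested. All 9 T lineage markers were higher in P6D4, with a summed level of 3690 to 3740 CPM in P6D4 and 130 to 133 CPM in 70Z/3. All 7 B lineage markers were lower, with 0.698 to 1.3 CPM in P6D4 and 1760 to 1800 CPM in 70Z/3. In bulk libraries like these, fewer cells with a transcript and less of it per cell cannot be told apart.

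P6D4 and 70Z/3 expressed different sets of the 7 genes. Tcf3 was at a similar level in both lines, Tcf4 was near 0 in P6D4, and Tcf12, Id1, Id2 and Id3 were all higher in P6D4. Id4 had no count in any library. Of the 6 genes tested, 5 were higher and 1 was lower by edgeR's quasi-likelihood test, against the 43.3% and 43.2% of all tested genes given above. In the stricter test for a change beyond 2-fold, 4 members passed as higher and 1 as lower, where 16.6% of all tested genes passed as higher, 18.6% as lower and 35.2% in either direction. A fitted log2 fold change of at least 3 was reached by Id1 and Id3, and by 8.87% of all tested genes.

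**Figure D1:**
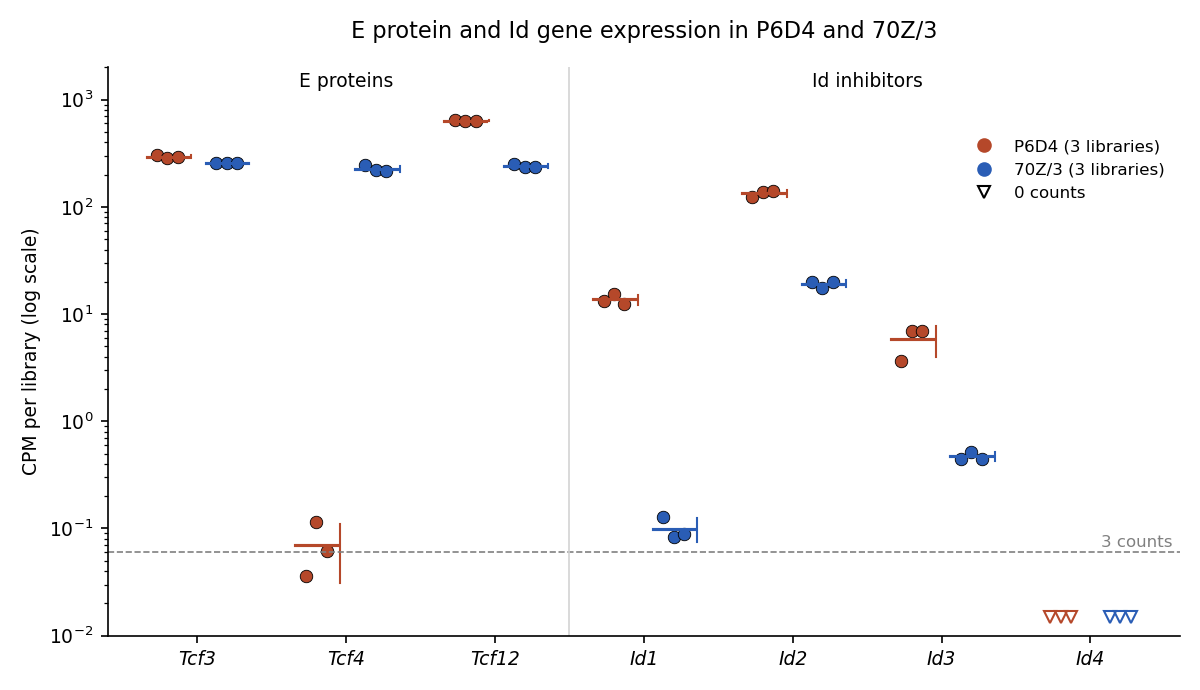
CPM of the 7 genes in each RNA library on a log axis, P6D4 in red and 70Z/3 in blue, with the mean as a horizontal line, the SD of 3 libraries as a vertical line and open triangles for libraries with 0 counts. The dashed line marks what 3 counts are worth. Tcf3 differs little between the lines, Tcf4 drops to about the dashed line in P6D4, and Tcf12, Id1, Id2 and Id3 lie higher in P6D4 without overlap.

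Among the E proteins, Tcf3 had 303, 287 and 289 CPM in P6D4, and 254, 256 and 256 CPM in 70Z/3. The 3 P6D4 libraries lay above the 3 of 70Z/3, but by a small step. Tcf3 was 1.15-fold higher in P6D4, with an edgeR adjusted p of 7.2e-05 for a log2 fold change of 0.20 ± 0.03 (SE), and did not pass the test for a change beyond 2-fold (edgeR adjusted p = 1). Of all tested genes, 81.9% had a larger absolute log2 fold change. In both lines Tcf3 ranked among the more highly counted genes, at the 95.7 percentile of mean CPM in P6D4 and the 94.1 percentile in 70Z/3.

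Tcf12 had 641, 637 and 636 CPM in P6D4, and 250, 235 and 235 CPM in 70Z/3. The groups were far apart and the P6D4 libraries nearly equal. Tcf12 was 2.66-fold higher in P6D4, with an edgeR adjusted p of 9.81e-14 for a log2 fold change of 1.41 ± 0.03 (SE). It also passed the test for a change beyond 2-fold (edgeR adjusted p = 9.29e-09). The counts do not separate the long and the short HEB isoforms, which start at different promoters and share most exons.

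Tcf4 went the other way. It had 2, 6 and 3 counts in the P6D4 libraries, and 11466, 10624 and 9827 counts in those of 70Z/3. In CPM, P6D4 averaged 0.0705 ± 0.0397 and 70Z/3 averaged 227 ± 14.3 (SD, n = 3 each). The edgeR adjusted p was 1.15e-17 for a fitted log2 fold change of -11.61 ± 0.12 (SE), and 1.5% of all tested genes had a larger absolute one. With 11 counts in P6D4 the SE understates counting error, and the ratio of the counts was 3250 in favour of 70Z/3, with an exact 95% counting interval of 1810 to 6500. The lncRNA gene Gm31439 overlaps Tcf4 in the annotation used, and no source used here gives the strand setting of the counting.

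The Id genes that were expressed were all higher in P6D4. Id2 had 123, 137 and 141 CPM in P6D4, and 20, 17.6 and 20 CPM in 70Z/3. It was the Id gene with most counts in every library, and the groups did not overlap. Id2 was 6.99-fold higher in P6D4, with an edgeR adjusted p of 3.06e-14 for a log2 fold change of 2.80 ± 0.06 (SE), and 9.18% of all tested genes had a higher one.

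Id1, best known as a target of bone morphogenetic protein (BMP) signalling, had 737, 806 and 610 counts in P6D4, and 6, 4 and 4 counts in 70Z/3. In CPM this was 13.7 ± 1.43 in P6D4 and 0.0998 ± 0.0243 in 70Z/3 (SD, n = 3 each). The edgeR adjusted p was 1.72e-13 for a log2 fold change of 7.07 ± 0.18 (SE). The ratio of the counts was 137 in favour of P6D4, with an exact 95% counting interval of 81.8 to 252. Id1 in 70Z/3 was thus barely above the level that 3 counts are worth.

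Id3, a target of pre-T cell receptor signalling through Egr factors, had 202, 368 and 339 counts in P6D4, and 21, 25 and 20 counts in 70Z/3. P6D4 replicate 1 was the lowest of its line for Id3 and for Id2, and still lay above every 70Z/3 library. Id3 averaged 5.86 ± 1.92 CPM over the P6D4 libraries and 0.47 ± 0.0419 CPM over those of 70Z/3 (SD, n = 3 each). The edgeR adjusted p was 4.12e-08 for a log2 fold change of 3.63 ± 0.29 (SE), which was 3.88 without P6D4 replicate 1.

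Id4 had 0 counts in all 6 libraries. A count of 0 allows up to 3 counts, which is 0.0541 to 0.0616 CPM in the P6D4 libraries and 0.0622 to 0.0666 CPM in those of 70Z/3, for counting error only. The lncRNA gene A330033J07Rik overlaps Id4.

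The sequences before the annotated starts are shown for the E-box, the motif that E proteins bind, in genes that were higher in P6D4 and in Id4, which had no counts. The RefSeq promoter table (GRCm38.p6) held entries for Tcf3, Tcf12, Id2, Id3 and Id4, and the 250 bases before each start were searched for CANNTG, which reads the same on both strands. Capitals mark a match, and each sequence is given 5′ to 3′ on the gene's strand. The windows are chr9:72111820-72112069 (minus strand) for the most upstream of 3 Tcf12 starts, chr12:25096093-25096342 (minus) for Id2, chr4:136143572-136143821 (plus) for Id3 and chr13:48260866-48261115 (plus) for Id4.
Tcf12: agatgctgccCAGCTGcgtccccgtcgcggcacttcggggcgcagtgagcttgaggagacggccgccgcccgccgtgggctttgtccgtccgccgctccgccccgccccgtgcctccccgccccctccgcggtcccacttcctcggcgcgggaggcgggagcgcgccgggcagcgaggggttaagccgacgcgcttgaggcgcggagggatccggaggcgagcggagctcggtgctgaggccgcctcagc
Id2: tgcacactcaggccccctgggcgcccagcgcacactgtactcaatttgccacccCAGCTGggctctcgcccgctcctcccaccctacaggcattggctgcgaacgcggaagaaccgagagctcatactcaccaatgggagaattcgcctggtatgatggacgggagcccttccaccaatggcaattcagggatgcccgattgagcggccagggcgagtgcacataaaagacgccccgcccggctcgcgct
Id3: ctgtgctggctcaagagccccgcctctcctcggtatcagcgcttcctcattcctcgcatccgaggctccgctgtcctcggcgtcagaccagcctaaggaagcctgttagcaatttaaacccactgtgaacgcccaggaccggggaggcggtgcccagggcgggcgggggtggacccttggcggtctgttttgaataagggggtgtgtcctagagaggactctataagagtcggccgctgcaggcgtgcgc
Id4: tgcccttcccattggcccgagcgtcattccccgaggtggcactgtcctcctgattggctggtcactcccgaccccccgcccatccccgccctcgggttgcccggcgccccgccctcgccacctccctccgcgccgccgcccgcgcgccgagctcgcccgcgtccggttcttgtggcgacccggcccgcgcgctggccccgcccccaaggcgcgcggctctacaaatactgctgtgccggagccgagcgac
The windows of Id2 and of the most upstream Tcf12 start each held 1 E-box, and in both its letters were CAGCTG, with its first base 196 bases before the start in Id2 and 240 bases before it in Tcf12. Of the other Tcf12 starts, the second had 1 E-box with the letters CAAGTG and the third had none. The windows of Id3 and Id4 held none, and that of Tcf3 held 1 with the letters CACTTG. Of 32851 windows of this length in the table, 66.2% held CANNTG and 13% held CAGCTG. A match describes letters and not a bound site.

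The balance of the families shifted towards the Id genes in P6D4, because the Id sum was 7.77 times as high in P6D4 as in 70Z/3 and the E protein sum 1.29 times. No transcript lengths were given in the tables used, so ratios between genes are ratios of counted reads, not of molecules. They are compared between lines only, where the same genes are summed on both sides. The E protein genes summed to 944, 924 and 925 CPM in P6D4, and to 749, 711 and 709 CPM in 70Z/3. The Id genes summed to 140, 160 and 161 CPM in P6D4, and to 20.5, 18.2 and 20.5 CPM in 70Z/3. E reads per Id read were therefore 6.74, 5.79 and 5.76 in P6D4, and 36.5, 39.1 and 34.6 in 70Z/3. On the log2 scale this ratio was 2.60 ± 0.13 in P6D4 and 5.20 ± 0.09 in 70Z/3 (SD, n = 3 each), a difference of -2.59. The lines did not overlap. The score is over genes chosen with earlier results known and is given without a test.

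**Figure D2:**
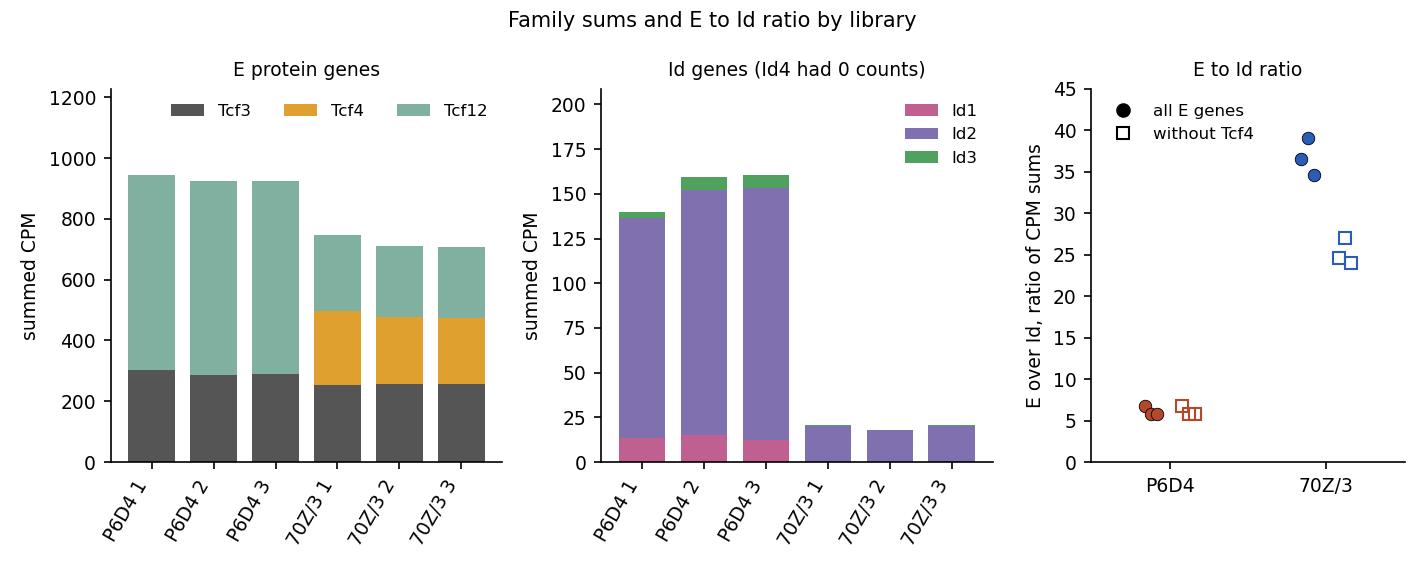
Summed CPM of the E protein genes and of the Id genes in each library, as stacked bars, and the ratio of the sums, with filled points for all E protein genes and open squares without Tcf4. Tcf4 fills about as much of the 70Z/3 bars as Tcf3 does and is not visible in P6D4, and the ratio is 5.76 to 6.74 in P6D4 against 34.6 to 39.1 in 70Z/3.

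Part of the shift came with Tcf4. Without it, E reads per Id read were 6.09 ± 0.556 in P6D4 and 25.2 ± 1.61 in 70Z/3 (SD, n = 3 each), a log2 difference of -2.05. With each gene weighted alike, as the mean log2 CPM of each family without Id4, the difference was -7.90. That mean gives full weight to Tcf4 in P6D4 and Id1 in 70Z/3, which had 11 and 14 counts in all. Without Id2 the ratio of sums differed by -4.73. Pairs of genes show the same without a sum, since a transcript's length cancels when one gene is compared between lines. Tcf12 per Id2 was 4.78 ± 0.371 in P6D4 and 12.6 ± 0.788 in 70Z/3. Tcf3 per Id2 was 2.2 ± 0.225 in P6D4 and 13.4 ± 1.03 in 70Z/3. The log2 fold change of an E protein gene minus that of an Id gene was negative in all 9 pairs of expressed genes. It was nearest to 0 for Tcf12 with Id2, at -1.40, and -6.87 for Tcf3 with Id1.

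The make-up of each family differed as well. Of the E protein reads, Tcf12 held 67.9, 68.9 and 68.8% in P6D4, and 33.4, 33 and 33.2% in 70Z/3. Tcf4 held 0.00382 to 0.0123% in P6D4 and 30.8 to 32.6% in 70Z/3, while Tcf3 held 31.1 to 32.1% in P6D4 and 34 to 36.1% in 70Z/3. Tcf12 per Tcf3 was 2.18 ± 0.0536 in P6D4 and 0.94 ± 0.0378 in 70Z/3 (SD, n = 3 each). Of the Id reads, Id2 held 86.1 to 87.9% in P6D4 and 96.7 to 97.4% in 70Z/3. Id1 held 7.8 to 9.58% in P6D4 and 0.433 to 0.622% in 70Z/3.

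Counts for the partners of E proteins were near those of all genes. Of 23 listed helix-loop-helix partners, LIM-domain bridging proteins and co-repressors, 8 could be tested, 4 were higher and 4 lower in P6D4 by the edgeR test, where 43.3% and 43.2% of all tested genes were, with a median log2 fold change of 0.01, the same as over all tested genes. Those lowered most were Lmo2 and Lyl1, which together with E proteins form complexes of blood progenitors. Lyl1 averaged 0.0958 ± 0.0501 CPM over the P6D4 libraries and 109 ± 6.36 CPM over those of 70Z/3 (SD, n = 3 each). Lmo2 had 1 count in all in P6D4 and 9471 in 70Z/3, a ratio of 10600 with an exact 95% counting interval of 1900 to 418000. Lmo4 was lower by less, at -0.34 ± 0.04 (SE) on the log2 scale. The co-repressor gene Cbfa2t3, whose family binds E protein activation domains, averaged 11.6 ± 0.686 CPM over the P6D4 libraries and 0.334 ± 0.143 CPM over those of 70Z/3 (SD, n = 3 each), higher by 5.11 ± 0.16 (SE; edgeR adjusted p = 1.85e-12). With 47 counts in all in 70Z/3, the SE of Cbfa2t3 understates counting error. Bhlha15, a factor of secretory cells, was higher by 3.17 ± 0.12 and Tal2 by 1.32 ± 0.26. Tal1, a partner often activated in T cell leukaemias, had 1 count in each of the 6 libraries and was too low to test, as were 14 others.

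Known targets of E proteins followed the lineage of each line. Of 14 B lineage targets, 0 were higher and 14 lower in P6D4 by the edgeR test, where 43.3% and 43.2% of all tested genes were. Their median log2 fold change was -10.12. Ebf1 and Igll1, the factor that specifies B cells and a surrogate light chain, were lower by -11.91 ± 0.11 and -11.49 ± 0.08 (SE), and the adaptor Blnk by -11.44 ± 0.10. These 3 had 12, 20 and 6 counts in all in P6D4, and the exact 95% counting intervals of their ratios were 2280 to 7710 for Ebf1, 1890 to 4790 for Igll1 and 1360 to 8060 for Blnk, in favour of 70Z/3. Foxo1, which is used in both lineages, was lower by -0.84 ± 0.05, the smallest difference of the list, and Pou2f2 and Pou2af1 by -2.26 and -3.81. Of 14 T lineage targets 13 could be tested, 12 were higher and 1 lower, beside the same shares of all tested genes, with a median of 4.43. Cd3e, Cd3g and Notch3 were higher by 10.87, 10.43 and 10.43, with 28, 20 and 39 counts in all in 70Z/3. The exact 95% counting intervals of the ratios were 1310 to 2850 for Cd3e and 906 to 2290 for Cd3g, in favour of P6D4. Hes1 and Cdkn1a were higher by 1.00 ± 0.05 and 1.39 ± 0.09. Cdk6, which E proteins are known to repress in thymocytes, was lower by -1.43 ± 0.05 (SE; edgeR adjusted p = 4.59e-12). These 2 lists overlap with the markers that define the lines and are no separate sign of E protein activity.

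The targets shared by both lineages did not move together. Of Rag1, Rag2, Dntt and Il7r, 2 were higher and 2 lower, which is near the 43.3% and 43.2% of all tested genes. Rag1, a subunit of the V(D)J recombinase, averaged 503 ± 22.6 CPM over the P6D4 libraries and 0.873 ± 0.214 CPM over those of 70Z/3 (SD, n = 3 each). Rag2, the other subunit, averaged 13.9 ± 0.761 CPM over the P6D4 libraries and 0.312 ± 0.0592 CPM over those of 70Z/3. Dntt, which encodes the terminal transferase, was lower by -6.48 ± 0.15 (SE), with 23 counts in all in P6D4 and an exact 95% counting interval of 60.2 to 143 for the ratio in favour of 70Z/3, and Il7r, the receptor chain for IL-7, by -1.08 ± 0.07.

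**Figure D3:**
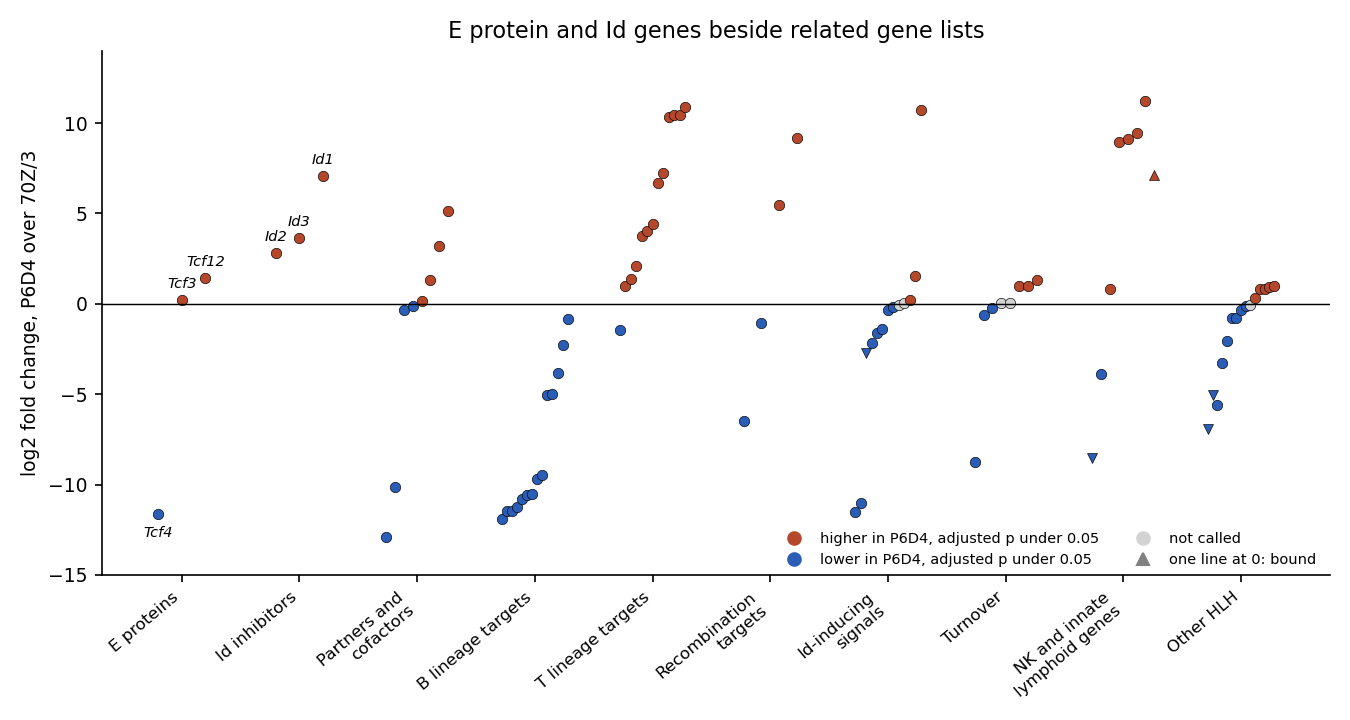
Log2 fold change (P6D4 over 70Z/3) of the tested genes of each list, red for genes higher in P6D4, blue for genes lower and grey for genes not called by the edgeR test. Triangles are genes with 0 counts in one line, drawn at the bound that 3 counts allow. The 3 Id genes lie at 2.80 to 7.07, Tcf12 at 1.41, Tcf3 at 0.20 and Tcf4 at -11.61.

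Signals known to induce Id genes differed in single components. Of 18 listed receptors, SMADs and Egr factors, 13 could be tested. By the edgeR test 3 of them were higher in P6D4 and 8 lower, where 43.3% and 43.2% of all tested genes were. The other 2 were not called, and the median log2 fold change was -0.35. Bmpr2, the type II receptor for BMPs, had 6299 counts in all in P6D4 and 3 in 70Z/3, a ratio of 1880 with an exact 95% counting interval of 642 to 9110. The type I receptors Bmpr1a and Bmpr1b and the BMP SMADs Smad1 and Smad9 were at or near 0 in both lines, with no count in P6D4 and 1, 2, 3 and 0 counts in all in 70Z/3. Acvr1, another type I receptor of the list, was expressed in both lines and is named with its values known. It averaged 6.64 ± 0.397 CPM over the P6D4 libraries and 20.6 ± 1.14 CPM over those of 70Z/3 (SD, n = 3 each), lower by -1.63 ± 0.07 (SE). Smad5, a BMP SMAD, averaged 114 ± 2.78 CPM over the P6D4 libraries and 112 ± 2.58 CPM over those of 70Z/3 (SD, n = 3 each) and was not called. Smad7, an inhibitor of this signalling, had 1 count in P6D4 and 3631 in 70Z/3. Tgfbr2, the type II receptor for TGF-beta, averaged 0.0447 ± 0.0109 CPM over the P6D4 libraries and 98.9 ± 1.42 CPM over those of 70Z/3, while Tgfbr1 and Smad3 were higher in P6D4 by 1.53 ± 0.04 and 0.22 ± 0.04 (SE). Smad2 was not called. Egr3 had no count in P6D4 and 54 in 70Z/3, which makes it lower by at least 6.65-fold. Lower as well were Egr1 and Egr2, which were picked out with their values known, at -1.40 ± 0.09 and -0.35 ± 0.12 (SE). What part Egr factors have in the Id3 levels was not tested.

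Genes of E and Id protein turnover were called about as often as all genes. Of 8 tested, 3 were higher and 3 lower in P6D4, where 43.3% and 43.2% of all tested genes were, 2 were not called, and the median log2 fold change was 0.04. Skp2, a ubiquitin ligase subunit involved in E2A degradation, averaged 203 ± 3.87 CPM over the P6D4 libraries and 81.4 ± 2.2 CPM over those of 70Z/3 (SD, n = 3 each). Asb2, another ligase subunit acting on E2A, had 2 counts in P6D4 and 925 in 70Z/3, a ratio of 517 with an exact 95% counting interval of 143 to 4280. Usp1, which removes ubiquitin from Id proteins, was lower by -0.64 ± 0.04 (SE), and Huwe1 by -0.24 ± 0.04. Fzr1 and Cdc20, which direct the anaphase-promoting complex, were higher by 1.01 and 0.96. Stub1 and Wdr48 were not called.

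Genes of NK and innate lymphoid cells, lineages that depend on Id2, were mostly higher in P6D4. Of 10 listed, 8 could be tested. By the edgeR test 6 were higher and 2 lower, where 43.3% and 43.2% of all tested genes were. Their median log2 fold change was 9.04, which became 8.04 when a gene at 0 in one line entered at its bound. The summed level of the 10 was 336 to 417 CPM in P6D4 and 27.1 to 28.5 CPM in 70Z/3. Rora and Nfil3, transcription factors of innate lymphoid cells, were higher by 11.21 ± 0.19 and 9.43 ± 0.20 (SE). With 8 and 6 counts in all in 70Z/3, the exact 95% counting intervals of their ratios were 1250 to 5710 for Rora and 333 to 1980 for Nfil3. Zbtb16, the factor of innate-like lymphocytes, was at 9.07 ± 0.268 CPM in P6D4 (SD, n = 3), at least 141-fold higher, and Tox was higher by 0.82 ± 0.09. The NK receptors Klrd1 and Klrb1c were lower, at least 365-fold for Klrd1 and by -3.87 ± 0.26 for Klrb1c. Eomes had no count in either line, Klrd1 none in P6D4, and Zbtb16 and Ncr1 none in 70Z/3. Among markers of other cells, myeloid genes summed to 30.9 to 37.7 CPM in P6D4 and 23.3 to 24.9 CPM in 70Z/3, with Cebpa at 0 in both. These sums hide opposite directions, since of 4 myeloid genes tested 2 were higher in P6D4 and 2 lower. Itgam averaged 29.1 CPM in P6D4 and 7.07 CPM in 70Z/3, and Lyz2 averaged 1.96 CPM and 12.3 CPM. Stromal genes summed to at most 4.49 CPM in P6D4, all of it Pdgfrb, and 0.936 CPM in 70Z/3, with Col1a1, Col1a2, Pdgfra and Dcn at 0 in P6D4 and Dcn at 0 in 70Z/3. What part any of these cells have in the Id levels was not tested.

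Other helix-loop-helix factors differed in both directions. Of 22 listed, 15 could be tested. By the edgeR test 5 of them were higher in P6D4 and 9 lower, where 43.3% and 43.2% of all tested genes were. The remaining 1 was not called, and the median log2 fold change was -0.32. The 5 became 8 without any one of the 3 70Z/3 libraries, 9 with DESeq2 and 10 with no filter on low counts. Among the 15 tested, the highest were the Notch target Hes1, the sterol regulator Srebf2 and Hes6, at 1.00, 0.92 and 0.84. In the test for a change beyond 2-fold 0 of the 15 passed as higher, where 16.6% of all tested genes did. Of those too low to test, Hey1 had 33 counts in all in P6D4 and 0 in 70Z/3, at least 3.34-fold higher, and Hes3 had 21 in P6D4 and 2 in 70Z/3; both were singled out with their values known. Bhlhe41 and Mitf had no count in P6D4 and were at least 120-fold and 33.3-fold lower. Tfe3, with 132 counts in all in P6D4, was lower by -5.60 ± 0.09 (SE). Hif1a was not called, with an average of 212 ± 5.82 CPM over the P6D4 libraries and 218 ± 4.25 CPM over those of 70Z/3 (SD, n = 3 each).

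The genes whose pattern over the 6 libraries was most like a member's were found by the root mean square difference in log2 CPM. Each gene was centred on its own mean, and the search took 8759 tested genes with an established symbol and at least 10 CPM on average. With 2 lines this likeness is mostly the size of the difference between them. For Id1 the nearest were the protease gene Ctsl and the T lineage factor Gata3, at 0.101 and 0.133. Id2 was nearest to Zfp703 and Ahnak, at 0.077 and 0.079, and Id3 to Gzf1 and Klf6, at 0.225 and 0.241. Tcf4 was nearest to the laminin gene Lamc1 and to Qser1, at 0.202 and 0.203, both near 0 in P6D4. Tcf12 had closer neighbours in Fam199x and Samd8, at 0.014 and 0.024, and Tcf3 in Mrps31 and Kpnb1, at 0.012 and 0.014. Within 0.1 there were 1593 of the genes searched for Tcf3, 136 for Tcf12, 9 for Id2 and 0 for Tcf4, Id1 and Id3. Id1 and Id3 themselves averaged under 10 CPM, so other genes at their level were not searched.

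Miz1, the zinc finger factor that the ChIP-Seq of this study followed, had no peak summit within 1 kb of an end of any of the 7 genes in either list. Of 21900 protein-coding genes, 1.08% had one in the P6D4 list and 2.98% in the 70Z/3 list. The lists hold 21629 peaks for P6D4 and 10462 for 70Z/3, called by the authors on 1 library each, with 2.07 M of 60.8 M tags kept for P6D4 and 4.48 M of 30.9 M for 70Z/3 after removal of tags at the same position. They have no replicate, and the folds below are the authors' own. Near Id1, the 70Z/3 list has a peak at chr2:152741539-152742061, with its summit 4.4 kb beyond the upper-coordinate end of the gene and 12.1 kb from the next gene, Cox4i2. Its fold of 21.8 lies at the 98.2 percentile of that list. Near Id2, the 70Z/3 list has a peak at chr12:25100744-25101228, 4.8 kb upstream of the start, with a fold of 6.67, at the 31.6 percentile. Within 5 kb of a gene end, 0 of the 7 genes thus had a summit in the P6D4 list and 2 in the 70Z/3 list, where 4.21% of protein-coding genes had one in the P6D4 list and 6.50% in the 70Z/3 list. What part Miz1 has in the levels of these genes was not tested.

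Among the peaks at the member genes, Tcf12 carried the one site found in both lists. The share of all peaks found in both lists was not counted here, so this is a description only. The P6D4 list has 2 peaks well inside the gene, at chr9:71970750-71971415 and chr9:71971691-71972044, with folds of 6.4 and 6.77 at the 47.5 and 54.6 percentiles of that list. The 70Z/3 list has a peak of 1288 bp that overlaps both, at chr9:71970808-71972095 and 75.3 kb from the nearest annotated start, with a fold of 14.6 at the 96.3 percentile. A summit inside the gene was found for 8.91% of protein-coding genes in the P6D4 list and 10.0% in the 70Z/3 list, and Tcf12 spans 267.6 kb. Around the silent Id4 lay 1 peak in the P6D4 list, 36.7 kb away with a fold of 6.22, and 2 in the 70Z/3 list, 27.1 and 31.5 kb away with folds of 8.49 and 9.7. The 3 peaks within 50 kb of Tcf3 were all in the 70Z/3 list, 41.0 to 49.9 kb away, 1 of them inside Plk5. Each lay nearer to another gene than to Tcf3, with Plk5 at 0.0 and 3.0 kb and Onecut3 at 11.1 kb. No peak lay within 50 kb of Tcf4 or Id3. The share of all genes with a peak within 50 kb was not counted here.

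**Figure D4:**
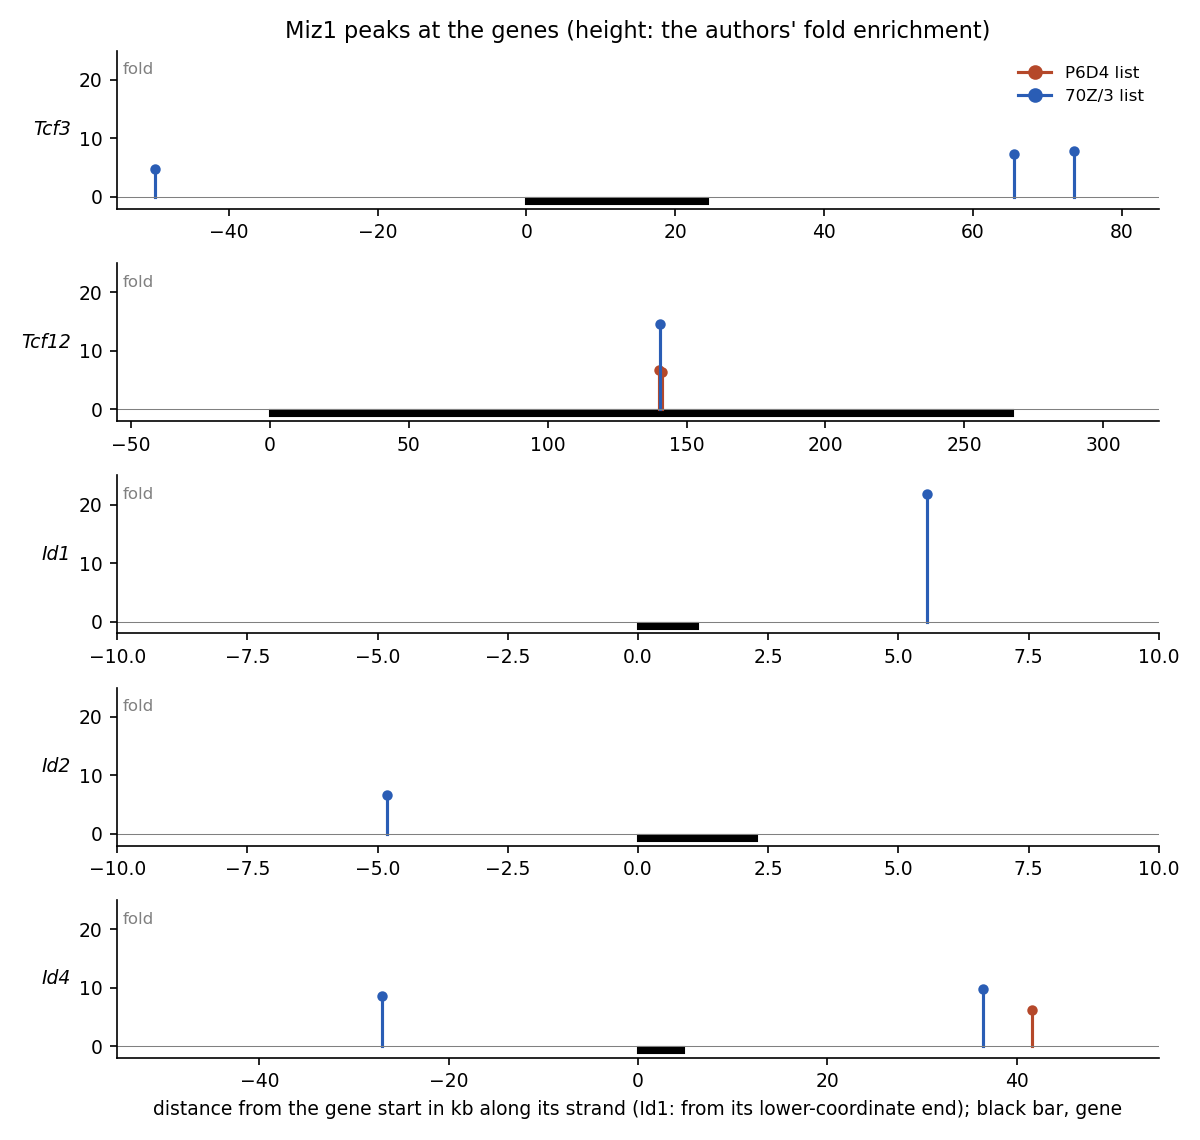
Miz1 peak summits at the genes that had one within 50 kb or inside, as distance in kb from the gene start along its strand (for Id1, from its lower-coordinate end), P6D4 list in red and 70Z/3 list in blue. The height is the authors' fold, the black bar is the gene, and the distance scale differs between rows. The peak near Id1 has the greatest height, 21.8, and Tcf12 is the one gene with peaks of both lists at the same place.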

How the data were processed

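RNA-Seq counts per Ensembl gene were deposited by the authors, without normalisation, for each library. The submitters' processing notes name as tools TopHat2 2.0.10, Bowtie2 2.10, SAMtools, bedtools and HTSeq, and as builds mm10 and GRCm38. The kit keeps strand, per the labels' protocols, and no source used here gives the strand setting of counting. From each file 5 HTSeq summary lines were dropped. Their lines for no feature and for ambiguous reads held 14.5 to 16% and 0.382 to 0.424% of the reads counted with them and in genes, and 36345 of 38293 IDs had a symbol in the name table.

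Per the file headers, Miz1 peaks came from MACS 2.0.10.20120913 at a q-value threshold of 0.01 with 1 tag kept per position and 1 ChIP library per line. The deposited values are pileup signal, a fold (ratio) over local background, -log10 p and -log10 q. The samples of histone marks and of input were not analysed here. The erythroid marker list is not reported here.

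Counts were tested with edgeR 4.0.16 in R 4.3.3 (TMM, filterByExpr, quasi-likelihood test, Benjamini-Hochberg adjusted p over all genes tested) with line as the only term, and with glmTreat against 2-fold. SEs were taken as the absolute log2 fold change over the root of the F statistic. Where a line had no count of a gene, 3 counts in each library served as floor, and genes of few counts got exact 95% counting intervals, both for counting error only. The test was checked on simulated data with 200 changed genes, far fewer than were called in the real data. The check therefore does not show how the test behaves when most genes differ. Alternatives were other size factors, DESeq2 1.42.0, no filter, a replicate block and leaving out each library. Genes were named by rule: all members, up to 3 called genes from each end of a list, the uncalled tested ones, and the 2 genes of nearest pattern. Named genes too low to test, among them Tal1, Bmpr1a, Bmpr1b, Smad1 and Smad9, and those said to be named with their values known, fall outside this rule. Members, lists and rule were chosen with earlier results of these data known. A planned division by transcript length was not made, because the tables used give no such length.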

Additional observations from a re-analysis of the deposited data

How the results depend on the processing

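The 6 tested members kept their direction and their call under the 11 alternatives, except that Tcf3, at a log2 fold change of 0.20, was not called against a 2-fold difference (edgeR adjusted p = 1). Without one library at a time the log2 fold changes ranged from -12.13 to -11.28 for Tcf4, 0.18 to 0.22 for Tcf3, 1.39 to 1.44 for Tcf12, 6.94 to 7.28 for Id1, 2.74 to 2.86 for Id2 and 3.48 to 3.88 for Id3. Over all genes, 5955 were higher and 5936 lower in P6D4, and 2277 and 2561 against a 2-fold difference (16.6% and 18.6% of those tested). Against a 2-fold difference fewer listed genes were called: 2 higher and 2 lower among partners, 0 higher and 5 lower among other helix-loop-helix genes, 1 lower among recombination targets, and 1 higher and 1 lower among turnover genes. The other helix-loop-helix genes called higher numbered 5, and 9 with DESeq2, 10 without a filter, and 5 to 8 without one library, 8 without 70Z/3 replicate 1, 2 or 3, settings in which more genes of low counts are tested. The log2 E to Id ratio differed between lines by -2.59, by -2.67 to -2.55 without one library, and by -7.90 as a difference of mean log2 CPM with Id4 left out. It was -2.05 without Tcf4 and -4.73 without Id2, both chosen after seeing the data. A 5 kb window in place of 1 kb gave 2 members with a Miz1 summit in the 70Z/3 list. Same-numbered libraries of the lines did not deviate together (correlations -0.06, -0.05 and 0.01), and with a replicate block 5867 genes were higher and 5847 lower, and Tcf3 was at 0.20 (edgeR adjusted p = 5.37e-04). With 11 and 14 counts in the lower line, depth limits how well the folds of Tcf4 and Id1 are known.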
